A study of Mus musculus with 6 samples.

Results

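The 2 microRNAs described here are mmu-miR-103-3p and mmu-miR-107-3p of the mouse, written here as miR-103-3p and miR-107-3p, the mature products of hairpins that lie inside pantothenate kinase genes. They were chosen by name as miRNAs of pantothenate kinase genes, no measured value entering the rule although earlier results of these data were known, and both were found among the 1189 entries listed for each library. Each of the 6 mice, 3 in the PND group and 3 in the CON group, gave 1 small RNA library of prefrontal cortex. All were wild type male C57BL/6 mice, recorded as 18 months old, although the sample names carry 17 months. PND mice, named for postoperative neurocognitive disorder, breathed 1.5% isoflurane for 30 min and then had an exploratory laparotomy of 30 min under isoflurane. CON mice had neither this anesthesia nor an operation, so the effects of the anesthetic and of the surgery cannot be told apart. PND mice were also treated with lidocaine cream and povidone iodine on the wound, and all mice went through behavioral tests. After the last test, days after the operation, all mice were put under deep isoflurane anesthesia and perfused with saline. The cortex was then taken, so the CON mice had also breathed isoflurane by that time. The comparison asks whether the levels of these miRNAs differed between the groups.

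A microRNA (miRNA) is a short RNA that is cut from a hairpin and guides a silencing complex to messenger RNAs, mainly through its seed near the 5′ end. Pantothenate kinases carry out the first step of coenzyme A synthesis, and miR-103 and miR-107 are carried in the introns of their genes. The pair is known for repressing Dicer1, the enzyme that cuts miRNAs from their hairpins, and Cav1, a membrane protein tied to insulin signaling. A lower level of miR-107 has been described in the cortex in Alzheimer's disease, where it is linked to Bace1, the protease that starts the formation of amyloid-beta.

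The mature sequences are shown because they differ so little, with the seed, bases 2 to 8, in capitals.
miR-103-3p: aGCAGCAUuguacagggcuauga
miR-107-3p: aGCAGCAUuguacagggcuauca
The sequences are those of RefSeq on GRCm38.p6. Each has 23 bases, and the only difference is G22C, counted from 1 at the 5′ end with the base of miR-103-3p first. The first 21 bases are the same, so a read that ends before base 22 could come from either miRNA. Of the 1679 mature miRNA names in the RefSeq table, only these 2 had the seed GCAGCAU.

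miR-103-3p has 2 genes and miR-107-3p has 1 gene. Mir103-1 lies on chromosome 11 from 35782396 to 35782481, on the plus strand, inside Pank3. Mir103-2 lies on chromosome 2 from 131288052 to 131288137, on the plus strand, inside Pank2. Mir107 lies on chromosome 19 from 34820687 to 34820773, on the minus strand, inside Pank1. Each hairpin is on the strand of its host gene and overlapped 0 annotated exons of it in GENCODE release M21, so all 3 are intronic. The mature miR-103-3p is read at chr11:35782447-35782469 and chr2:131288103-131288125, and the mature miR-107-3p at chr19:34820700-34820722. The mature miR-103-3p is the same from both genes, so its value is the sum of both and cannot be divided between them. The hairpins are shown with the 3p product in capitals, which takes bases 52 to 74 of each.
Mir103-1: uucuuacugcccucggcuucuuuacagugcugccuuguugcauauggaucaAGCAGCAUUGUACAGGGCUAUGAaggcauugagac
Mir103-2: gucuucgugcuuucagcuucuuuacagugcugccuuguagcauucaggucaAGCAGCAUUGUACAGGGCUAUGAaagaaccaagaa
Mir107: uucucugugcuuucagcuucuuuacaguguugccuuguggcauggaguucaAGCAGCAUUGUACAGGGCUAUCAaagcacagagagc

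The values are CPM, reads per 1000000 reads on all listed miRNAs. The libraries held between 14849461 and 19471226 reads on miRNAs, and 3 reads, taken as the smallest level that could be shown, were between 0.154 and 0.202 CPM. The marker miRNAs of neurons, which include miR-124-3p and miR-9-5p, were present in every library and summed to between 284902 and 376521 CPM. The 8 marker miRNAs of epithelium or olfactory tissue summed to 1646 CPM in CON mouse 1 and to between 67.0 and 198 CPM in the other mice. The 3 marker miRNAs of red blood cells summed to 99.5 CPM in PND mouse 1 and to between 31.9 and 54.5 CPM in the other mice. PND mouse 1 had the lowest level of both members among the PND mice, and without it the log2 fold change (PND minus CON) was 0.35 for miR-103-3p and 0.41 for miR-107-3p. CON mouse 1 also had the highest level of both members among the CON mice, and without it the fold change on the same scale was 0.33 for miR-103-3p and 0.46 for miR-107-3p. miR-128-3p, the most abundant miRNA, took between 17.6% and 29.2% of the reads, with the highest share in CON mouse 2 and the lowest in PND mouse 3. The neuronal sum was also highest in CON mouse 2 and lowest in PND mouse 3, but most of it is miR-128-3p itself. In CON mouse 2 miR-128-3p made up 292349 of 376521 CPM, and in PND mouse 3 it made up 176370 of 284902 CPM. The remainder, from the other neuronal markers, was lower in CON mouse 2 than in PND mouse 3.

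Both miRNAs were among the more abundant entries in the prefrontal cortex. miR-103-3p had a mean of 4508 CPM over the 6 mice and was the 34th entry in the order of mean level. miR-107-3p had a mean of 713 CPM and was the 88th. In single libraries miR-103-3p was between the 30th and the 38th entry and miR-107-3p between the 79th and the 93rd. The entries next to miR-103-3p in this order were miR-9-3p, a neural miRNA, with 4877 CPM, and miR-191-5p with 4442 CPM. Those next to miR-107-3p were miR-1839-5p with 737 CPM and miR-212-5p with 706 CPM. In both places the neighbouring means differed by less than the SD of the member over the 6 mice, which was 698 CPM for miR-103-3p and 125 CPM for miR-107-3p, so the order among neighbours is not resolved. Together the pair took between 0.402% and 0.647% of the reads of a library.

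**Figure D1:**
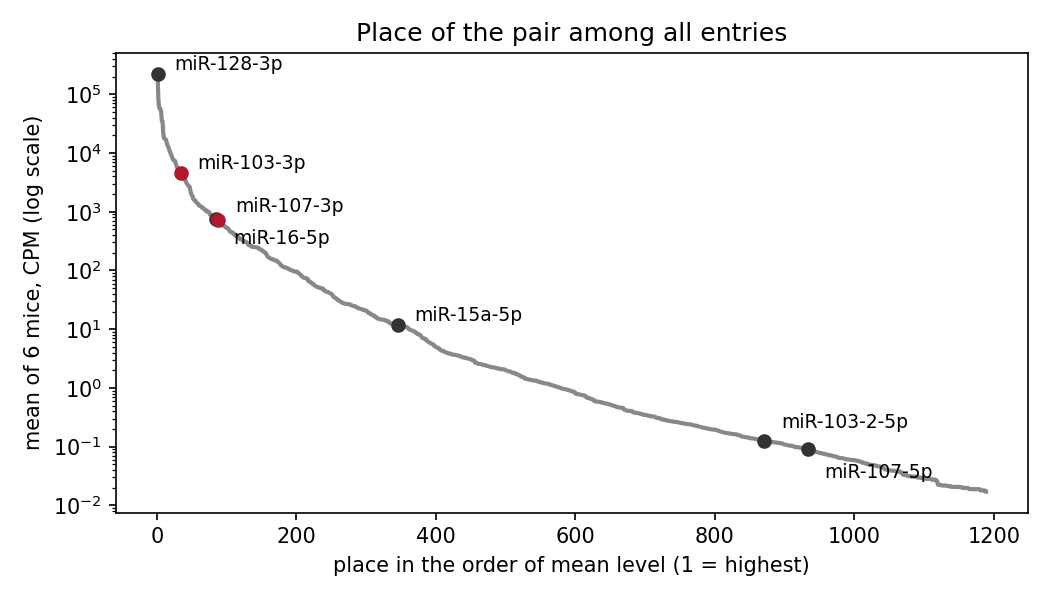
The mean level of each of the 1189 entries over the 6 mice, in CPM on a log scale, is drawn against its place in the order of mean level. The red points are miR-103-3p at place 34 and miR-107-3p at place 88, far above miR-103-2-5p and miR-107-5p, the other arms of their hairpins, whose means were 0.126 and 0.0901 CPM.

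Almost all reads of these hairpins came from the 3p arm. Over the 6 libraries miR-103-3p had 457991 reads and miR-107-3p had 72666 reads. miR-103-2-5p, the other arm of Mir103-2, had 13 reads in all, with 3, 1 and 4 in PND mice 1 to 3 and 0, 2 and 3 in CON mice 1 to 3. miR-107-5p had 9 reads in all, with 0, 0 and 5 in PND mice 1 to 3 and 3, 0 and 1 in CON mice 1 to 3. The 5p arm of Mir103-1 was not among the entries analysed here. The 5p arms also differ by few bases, with G1A between miR-103-1-5p and miR-103-2-5p and C16U between miR-103-2-5p and miR-107-5p. No fold change is given for the 5p arms, as 5 of the 6 values of each were at or under 3 reads.

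miR-103-3p had higher values in most PND mice, but the groups overlapped. Its level was 4263, 4875 and 5585 CPM in PND mice 1 to 3, from 83006, 85806 and 98921 reads. It was 4538, 3492 and 4292 CPM in CON mice 1 to 3, from 69327, 51860 and 69071 reads. PND mouse 1 was below both CON mouse 1 and CON mouse 3, and CON mouse 2 was the lowest of all. The group means were 4908 ± 662 CPM (SD, n = 3) in PND and 4108 ± 547 CPM (SD, n = 3) in CON. On the log2(CPM + 1) scale the difference was 0.26 (standard error 0.14, 95% interval -0.07 to 0.58), a 1.19-fold higher level in PND. It did not pass the test, with a limma adjusted p of 0.768 (Benjamini-Hochberg over all entries, from 0.57 to 1 in the other settings). The limma p before adjustment was 0.103, and the exact permutation test over the 6 mice gave p = 0.3 (two-sided), where 0.1 is the smallest p that 3 mice against 3 allow. The interval excludes the 2-fold change that the study used as its limit.

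miR-107-3p gave a slightly larger difference, again with PND mouse 3 highest and CON mouse 2 lowest. Its level was 718, 779.7 and 889.6 CPM in PND mice 1 to 3, from 13987, 13724 and 15756 reads. It was 738, 529 and 625 CPM in CON mice 1 to 3, from 11279, 7862 and 10058 reads. Only CON mouse 1 overlapped with the PND mice, above PND mouse 1 and below the other two. The group means were 796 ± 86.7 CPM (SD, n = 3) in PND and 631 ± 105 CPM (SD, n = 3) in CON. The difference was 0.34 on the log2(CPM + 1) scale (standard error 0.15, 95% interval -0.00052 to 0.68), a 1.27-fold higher level in PND. It missed the threshold, with a limma p of 0.0503, an adjusted p of 0.768 (from 0.57 to 1 in the other settings) and an exact permutation p of 0.2 (two-sided). Of the 1189 entries, 5.13% had a limma p under 0.05 (4.04% with the higher level in PND). A share of 0.0841% also changed more than 2-fold on the log2(CPM + 1) scale, and 0.421% had an adjusted p under 0.05. Neither member was among any of them. Nor were they among the 7.91% with every PND mouse above every CON mouse or the 2.02% with every PND mouse below. The share past both limits depended on the method, and edgeR put 31 or 32 entries past them, again without either member. With a pseudocount of 0.1 the limma p of miR-107-3p was 0.0465, and without CON mouse 1 it was 0.0183 at a log2 fold change of 0.46.

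**Figure D2:**
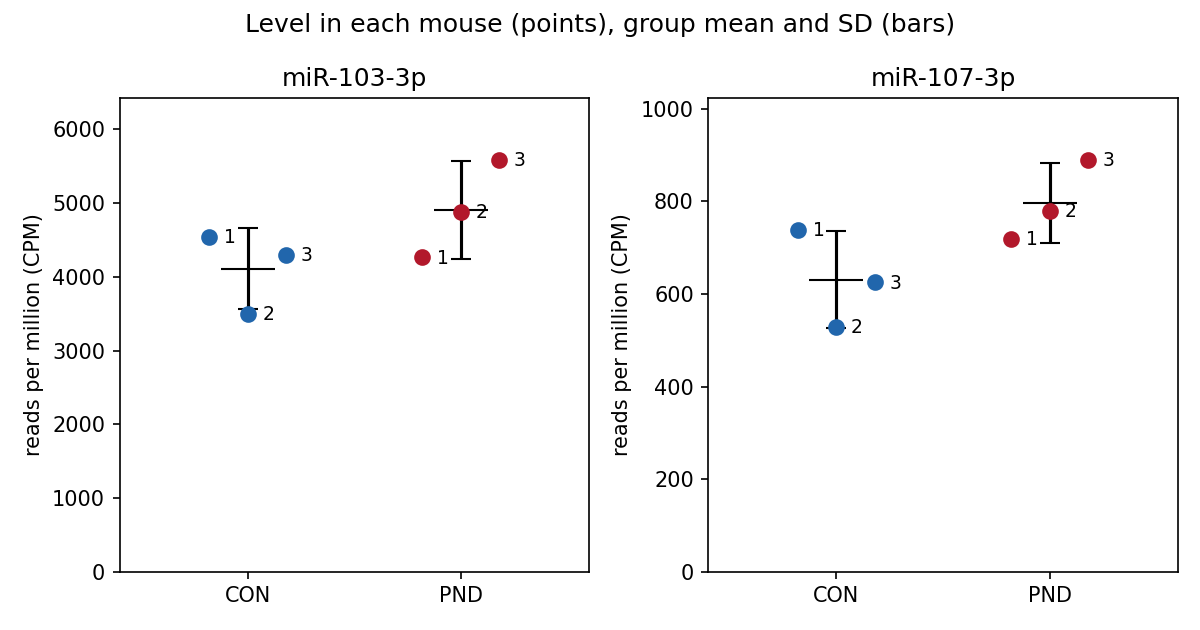
The level of miR-103-3p (left) and miR-107-3p (right) in CPM is drawn for each of the 3 CON mice (blue) and 3 PND mice (red), labelled by mouse number, with the group mean and SD in black. The groups overlap in both panels, where CON mouse 1 lies above PND mouse 1, and CON mouse 2 is the lowest at 3492 and 529 CPM.

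The size of the difference depended on how the libraries were scaled. CON mouse 2, the lowest library for both members, was also the one in which miR-128-3p took 29.2% of the reads, and PND mouse 3, the highest, was the one in which it took 17.6%. With miR-128-3p left out of the library total, a setting added after the values were seen, miR-103-3p had 5554, 6017 and 6781 CPM in PND mice 1 to 3 and 5873, 4935 and 5472 CPM in CON mice 1 to 3. miR-107-3p then had 936, 962 and 1080 CPM in PND mice 1 to 3 and 956, 748 and 797 CPM in CON mice 1 to 3. For both, CON mouse 1 still lay above PND mouse 1, and the log2 differences were 0.17 and 0.26 (two-sided exact permutation p = 0.2 for each). Among the 361 entries with a mean of at least 10 CPM, 79.2% had a higher mean in PND, and their median log2 fold change was 0.14. With TMM factors, which align the bulk of the entries, this median was 0.02, and the log2 fold change was 0.13 for miR-103-3p and 0.22 for miR-107-3p. With DESeq2 size factors the values were 0.10 and 0.19, with a median of -0.01. Relative to the median of the 361 entries, miR-103-3p was higher by 0.12 under each of these scalings and miR-107-3p by between 0.20 and 0.21. A scaling factor moves all entries of a library alike, so these distances from the median could hardly differ between scalings. Their sameness is therefore no separate evidence of a difference. A total of 101 of the 361 entries had a larger fold change in favor of PND than miR-103-3p, and 63 had a larger one than miR-107-3p. Leaving out CON mouse 2 gave a log2 fold change of 0.14 for miR-103-3p and 0.22 for miR-107-3p, and leaving out PND mouse 3 gave 0.16 and 0.26.

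**Figure D3:**
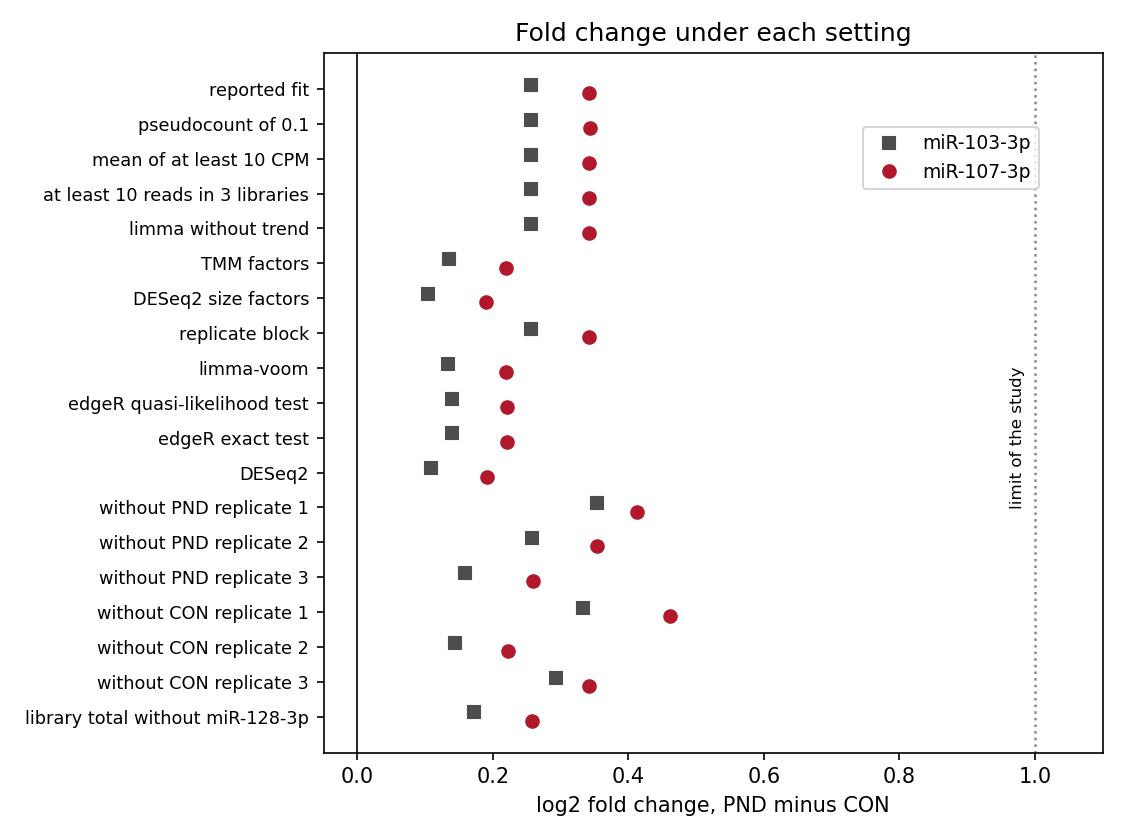
The log2 fold change (PND minus CON) of miR-103-3p (grey squares) and miR-107-3p (red circles) is drawn for the reported limma fit and the 18 other settings, with a dotted line at the limit of 1. The values lie between 0.10 and 0.46, all above 0 and below the limit, and miR-107-3p is to the right of miR-103-3p in each setting. The minimums of CPM or reads, the fit without trend and the replicate block cannot move a value.

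The spread between mice was set beside that of the same 361 entries. The SD of log2(CPM + 1) was 0.19 for miR-103-3p and 0.16 for miR-107-3p in the PND group, where the median of the 361 entries was 0.13. In the CON group it was 0.20 and 0.24, where the median was 0.22. Reads behind each value numbered 7862 or more, so the counting error was small against this spread. In bulk tissue, a change in the number of cells that hold a miRNA cannot be told apart from a change in its level per cell.

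The sum of the pair does not depend on how shared reads were divided between them, provided that each read was counted once. It was 4981, 5655 and 6474 CPM in PND mice 1 to 3 and 5277, 4022 and 4917 CPM in CON mice 1 to 3. PND mouse 1 was below CON mouse 1, and the other PND mice were above every CON mouse. The means were 5704 ± 748 CPM (SD, n = 3) in PND and 4738 ± 646 CPM (SD, n = 3) in CON, which is a difference of 0.27 in the mean log2 of the sum (exact permutation test, two-sided, p = 0.2). When miR-128-3p was left out of the library total, this difference was 0.18 (exact permutation test, two-sided, p = 0.2), and with TMM factors it was 0.15. Without CON mouse 2 it was 0.15 and without PND mouse 3 it was 0.17.

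The share of miR-107-3p within the pair is free of library scaling, since both values come from the same library. It was 14.4% in PND mouse 1 (95% Clopper-Pearson interval 14.2% to 14.6%), 13.8% in PND mouse 2 (13.6% to 14.0%) and 13.7% in PND mouse 3 (13.5% to 13.9%). It was 14.0% in CON mouse 1 (13.8% to 14.2%), 13.2% in CON mouse 2 (12.9% to 13.4%) and 12.7% in CON mouse 3 (12.5% to 12.9%). These intervals cover counting error only, as no molecular identifiers are described. CON mouse 1 was within the range of the PND mice, and CON mice 2 and 3 were below all of them. The log2 ratio of miR-107-3p to miR-103-3p was -2.62 ± 0.05 (SD, n = 3) in PND and -2.71 ± 0.08 (SD, n = 3) in CON, a difference of 0.09 (exact permutation test, two-sided, p = 0.3). Over the 9 pairs of a PND and a CON mouse, 7 had the higher ratio in PND, and the difference ran from -0.03 to 0.21. Without CON mouse 3 the mean difference was 0.05. In linear terms there were between 5.93 and 6.87 reads of miR-103-3p per read of miR-107-3p in the 6 mice.

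**Figure D4:**
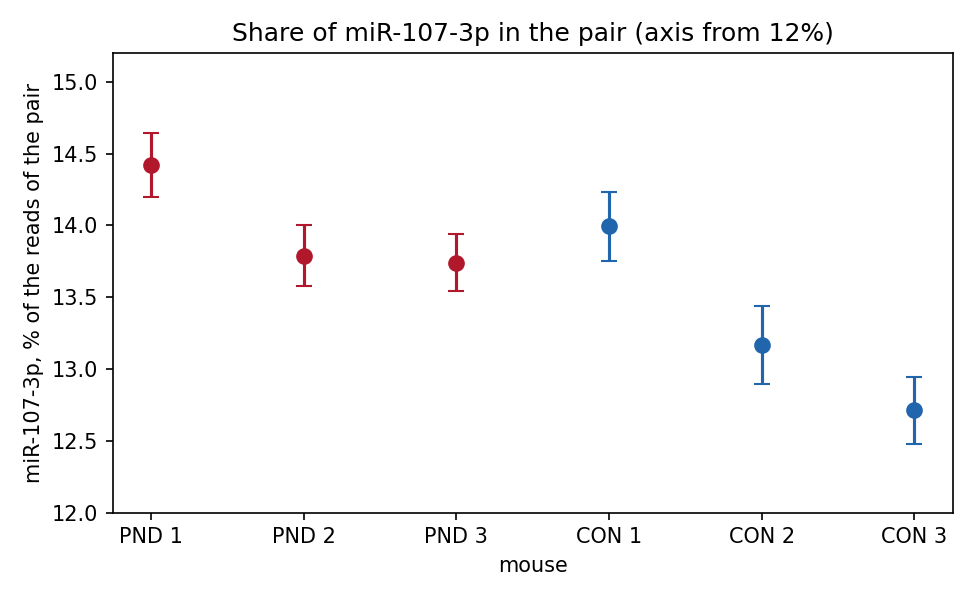
The share of miR-107-3p in the summed reads of miR-103-3p and miR-107-3p, in percent on an axis that starts at 12%, is drawn for each mouse with its 95% binomial interval (PND red, CON blue). The shares run from 12.7% in CON mouse 3 to 14.4% in PND mouse 1, and CON mouse 1 lies among the PND mice.

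The pair belongs to a wider group of miRNAs that carry the letters AGCAGC near the 5′ end, known as the miR-15/miR-107 group, whose members are known to repress cell cycle and metabolic genes. The position of these letters is shown for the more abundant miRNAs of the group, with the seed in capitals.
miR-107-3p: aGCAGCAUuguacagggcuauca
miR-16-5p: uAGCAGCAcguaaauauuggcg
miR-195a-5p: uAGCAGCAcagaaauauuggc
miR-497a-5p: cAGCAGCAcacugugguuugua
miR-15a-5p: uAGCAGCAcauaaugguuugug
In miR-103-3p and miR-107-3p the letters take bases 1 to 6, and in the others they take bases 2 to 7, so the seeds are offset by 1 base. Of the 9 other miRNAs on the list used here, 8 carried the letters at bases 2 to 7. The exception was miR-497b, which was listed by its name and has the seed ACCACAG.

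miR-103-3p dominated the reads of this group. It took between 70.8% and 73.9% of the summed CPM of the 11 listed miRNAs in each library. miR-107-3p took between 10.7% and 12.2%, and miR-16-5p, a widely expressed miRNA, took between 11.0% and 14.0%. miR-16-5p was the 85th entry in the order of mean level, close to miR-107-3p, with 763 CPM. miR-195a-5p had a mean of 153 CPM, miR-497a-5p had 32.2 CPM and miR-15a-5p had 11.9 CPM. The other 5 were below 10 CPM on average, and miR-195b had at most 5 reads in a library.

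None of the 11 miRNAs passed the limits of the study in limma, 0 had an unadjusted p under 0.05 and 0 had groups that did not overlap, where 5.13% of all entries had a limma p under 0.05 and 7.91% had every PND mouse above every CON mouse. Neither edgeR nor DESeq2 put any of the 11 past the limits. With the deposited scaling 10 of the 11 had a higher mean in PND, as did 65.3% of all 1189 entries. With TMM factors or DESeq2 size factors 7 did, as miR-16-5p, miR-195a-5p and miR-503-5p turned to a lower mean. The shares of all entries higher in PND were then 51.1% and 49.2%. The median log2 fold change of the 11 was 0.17, against 0.05 over all 1189 entries, and with TMM factors it was 0.06 against 0.01. The 11 include miR-103-3p and miR-107-3p, and without them the median of the other 9 was 0.11 with the deposited scaling. For those of the 11 with a mean of at least 10 CPM, both members again included, the median was 0.22 with the deposited scaling, against 0.14 over the 361 such entries. The widest differences were those of miR-15a-5p and miR-322-5p, which had at most 295 and 227 reads in a library. The level of miR-15a-5p was 11.6, 13.8 and 16.7 CPM in PND mice 1 to 3 and 11.1, 6.46 and 12.0 CPM in CON mice 1 to 3, so that PND mouse 1 lay below CON mouse 3. Its log2 fold change was 0.50 (standard error 0.25, limma adjusted p = 0.768), and without CON mouse 2 it was 0.25. The level of miR-322-5p was 7.65, 11.0 and 12.8 CPM in PND mice 1 to 3 and 8.31, 6.26 and 7.70 CPM in CON mice 1 to 3, so that PND mouse 1 lay below CON mice 1 and 3. Its log2 fold change was 0.43 (standard error 0.21, limma adjusted p = 0.768). Without PND mouse 1 it was 0.62, with a limma p of 0.0170 and an adjusted p of 0.586, and without PND mouse 3 it was 0.28. miR-16-5p had a log2 fold change of 0.11 (standard error 0.11) and miR-195a-5p one of 0.03 (standard error 0.13).

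**Figure D5:**
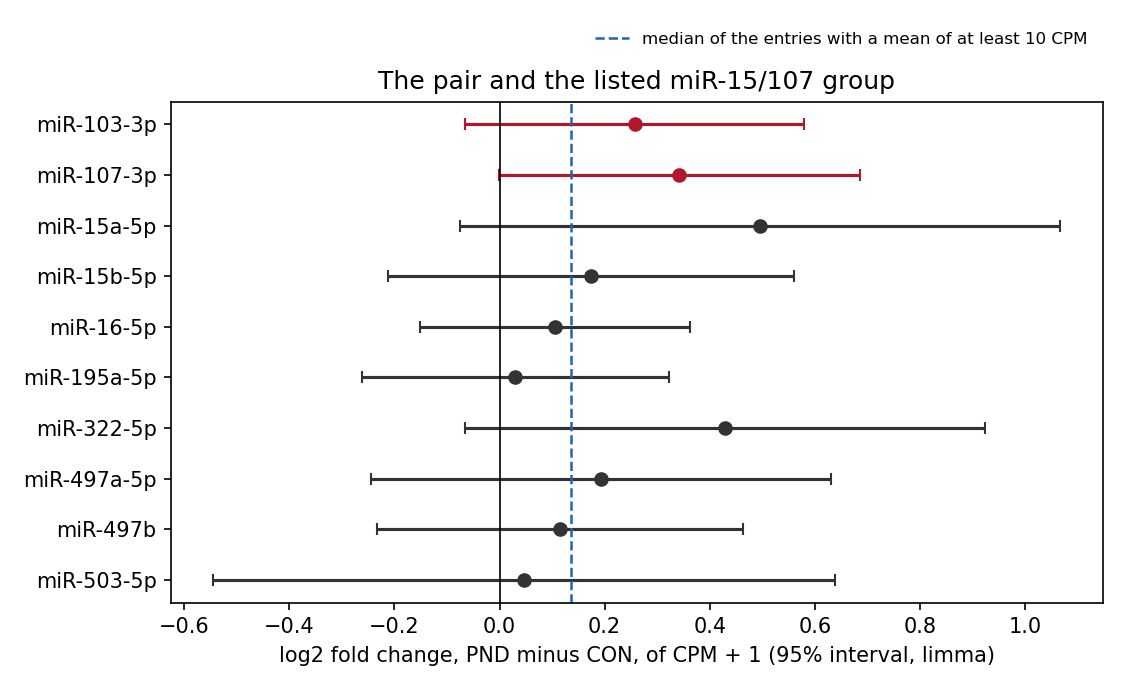
The log2 fold change (PND minus CON) of CPM + 1 is drawn with its 95% interval from limma. The red points are miR-103-3p and miR-107-3p, and the black points are 8 other miRNAs of the miR-15/miR-107 list. Among these 8 is miR-497b, which was listed by its name and lacks AGCAGC, and miR-195b is left out for its few reads. All 10 intervals include 0, and the dashed line marks 0.14, the median of the 361 entries with a mean of at least 10 CPM.

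A ratio to miR-16-5p, a measure chosen after the values were seen, compares each member with another miRNA of the same library. miR-16-5p was of like abundance to miR-107-3p but far less abundant than miR-103-3p. miR-107-3p had 1.01, 0.936 and 1.07 reads per read of miR-16-5p in PND mice 1 to 3. It had 0.935, 0.765 and 0.866 in CON mice 1 to 3. The groups did not overlap, but PND mouse 2 and CON mouse 1 differed by far less than their counting error. The mean log2 ratio was higher in PND by 0.24, with a two-sided exact permutation p of 0.1, which is the smallest this design can give. Without CON mouse 2 the difference was 0.16. Of 1188 entries, miR-107-3p included, 5.13% had a ratio to miR-16-5p that was higher in every PND mouse than in every CON mouse. For miR-103-3p the mean log2 ratio to miR-16-5p was higher in PND by 0.15 (two-sided exact permutation p = 0.2), and PND mouse 2 lay below CON mouse 3.

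The entries whose levels followed the pair most closely over the 6 mice had correlations close to 1. For miR-103-3p, the 5 highest Pearson correlations of log2(CPM + 1) among 360 entries with a mean of at least 10 CPM were those of miR-181c-3p, miR-106b-5p, miR-551b-3p, miR-335-5p and miR-409-5p, between 0.991 and 0.997. For miR-107-3p they were those of miR-124-5p, miR-3535, miR-376c-3p, miR-708-5p and miR-671-5p, between 0.981 and 0.996. All 10 had their lowest level in CON mouse 2 and their highest in PND mouse 3, as did both members. miR-107-3p itself came 37th among the entries most like miR-103-3p, with a Pearson correlation of 0.962 and a Spearman correlation of 0.943, and 0.756 without PND mouse 3 and CON mouse 2. These values describe 6 mice and were picked as the highest, so no p is given. A correlation of at least 0.9 was common, with 28.9% of the 360 entries for miR-103-3p and 21.1% for miR-107-3p, and the values of each library share 1 total.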

How the data were processed

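Small RNA libraries of 6 mice (3 PND, 3 CON) were analysed, grouped by their sample names and treatment labels. For each miRNA the authors deposited 1 value per library in CPM, which their methods call TPM. According to those methods, reads were filtered with fastx, kept in the size range of small RNAs, aligned with Bowtie and assigned to miRNAs by miRBase position, then scaled by TMM and by total reads. The processing notes of the submitters name Bowtie 0.12.2 and the builds mm8 and mm9. The miRBase release and the handling of multiply matching reads are not given in the sources used here, so the division of reads between miR-103-3p and miR-107-3p rests on an unstated rule. The methods name the NEBNext small RNA kit, whereas the labels name a VAHTS kit. The values of a library add up to 1000000, and a TMM adjustment can therefore not be seen in them.

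Dividing by the value of 1 read gave whole reads for 100% of the values of each library, with a tolerance of 0.05 reads. These reads gave the depth and entered the count-based alternatives. They numbered 14849461 to 19471226 per library, and intervals from them cover counting error only. The main test was run over all 1189 entries with limma 3.58.1 (R 4.3.3, trend), taking log2(CPM + 1), with no filter and no covariate, and Benjamini-Hochberg adjustment over all entries. The limits were those of the study, a fold change over 2 in either direction at p under 0.05. Ratios and sums were compared by exact permutation over the 6 mice. Each library was a separate mouse, and no pair within a group matched within counting noise (chi-square of 120 to 651 per degree of freedom). The alternatives were a pseudocount of 0.1, minimums of 10 CPM or of 10 reads in 3 libraries, no trend, TMM or DESeq2 factors, the replicate block, limma-voom, edgeR 4.0.16, DESeq2 1.42.0 and leaving out each mouse, with a library total without miR-128-3p added for the members after the data were seen. The limma, edgeR and DESeq2 fits of all 6 mice were tested on simulated reads with planted changes larger than those described here. Smaller changes and the fits that left out a mouse were not covered. Besides the members, the text names the other arms of their hairpins, the listed miR-15/miR-107 group, the neighbours in mean level and the 5 entries most correlated with each member. Members and lists were chosen with earlier results of these data known. Sequences and coordinates are those of RefSeq (GRCm38.p6), with introns from GENCODE M21, as the authors' files give none. All 13 listed entries of these miRNAs matched the RefSeq table by name. Python 3.11.15, pandas 2.3.3 and scipy 1.17.1 were used.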

Additional observations from a re-analysis of the deposited data

How the results depend on the processing

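The log2 fold changes of miR-103-3p and miR-107-3p stayed above 0 and short of the limits in all 18 other settings, from 0.10 to 0.35 and from 0.19 to 0.46, and from 0.14 to 0.35 and 0.22 to 0.46 with each mouse left out. The minimums of CPM or reads, the fit without trend and the replicate block cannot alter a fold change, so they say nothing on its direction. The TMM factors also served limma-voom and edgeR, so these settings are not independent. The sum of the pair kept its direction in 10 settings (0.12 to 0.36), and the ratio of miR-107-3p to miR-103-3p did so in 7 (0.05 to 0.13). No listed miRNA passed the limits in any setting. Same-numbered mice had correlations of their deviations from -0.128 to 0.508, and mice of different numbers from -0.546 to 0.503. Not every mouse correlated best with its own number, but PND mouse 3 and CON mouse 3 had the highest value. With 3 mice a group these values cannot decide whether the numbers mark a pairing. The replicate block is balanced, so it left every difference the same and could alter only the spread and the p. The log2 fold changes stayed at 0.26 and 0.34 (limma adjusted p = 0.746 for both). The differences stayed at 0.09 for the ratio, 0.24 for the ratio to miR-16-5p and 0.27 for the sum. Flipping the signs of the 3 same-numbered differences (exact test, two-sided) gave p = 0.25, 0.25 and 0.5, where 0.25 is the smallest possible.

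The number of all entries past the limits, 1 in the reported fit, was 22 with a pseudocount of 0.1, 0 over entries averaging at least 10 CPM, 0 without trend, 2 with the replicate block, 32 with limma-voom, 32 with the edgeR quasi-likelihood test, 31 with the edgeR exact test and 11 with DESeq2. It was between 0 and 1 with each mouse left out, and 0 without PND mouse 2 or CON mouse 1. The cause was not tested.

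Some log2 fold changes near 0 turned negative. With TMM factors, DESeq2 size factors, limma-voom, the edgeR quasi-likelihood and exact tests and DESeq2, they were -0.017, -0.046, -0.016, -0.017, -0.017 and -0.047 for miR-16-5p, -0.091, -0.12, -0.088, -0.11, -0.11 and -0.14 for miR-195a-5p, and -0.0053, -0.019, -0.0070, -0.10, -0.10 and -0.11 for miR-503-5p. With each mouse left out they ran from -0.047 to 0.11 for miR-195a-5p, below 0 without PND mouse 3 or CON mouse 3, and from -0.23 to 0.22 for miR-503-5p, below 0 without PND mouse 3 or CON mouse 2. With 3 mice a group, differences of this size could not be resolved.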
